A study of Drosophila melanogaster with 13 samples.

Results

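The dpr and DIP genes of *Drosophila* encode a family of immunoglobulin cell-surface proteins, the Dprs (defective proboscis extension response) and their partners, the Dpr-interacting proteins (DIPs). Members were taken as every gene whose symbol in the authors' count table is dpr followed by a number or DIP followed by a Greek letter. This gave 32 of the 17633 genes in the table, 21 dpr and 11 DIP genes, and the gene name in the table gave the family for 32 of 32. The dipeptidase genes Dip-B and Dip-C share letters with the family but do not match.

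A Dpr on the surface of a neuron binds a DIP on its neighbour, and each protein recognises only certain partners. In the fly visual system the pairs are known for their use in matching photoreceptors and medulla neurons to their synaptic partners and in the survival of some of these neurons. The combination of Dprs and DIPs that a cell carries differs between neuron types.

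RNA was measured in flow-sorted clone cells of the optic lobe, where the brain processes vision, at the wandering L3 stage of the larva. The groups were WT clones, clones carrying the allele lola[E76] and clones carrying the allele nerfin-1[159], with 9 libraries in total, 3 for each genotype. The transcription factors Lola and Nerfin-1, both with zinc fingers, help postmitotic neurons to hold their fate. Contact of the isoform Lola.N with DNA was measured by Targeted DamID, in which Dam methylase fused to the factor marks the DNA it meets, in cells of the L3 brain that express ey16F10-GAL4 (an eyeless driver), with 2 replicates.

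The count table names the WT columns FRT42D, the lola[E76] columns Lola42D and the nerfin-1[159] columns Nerfin2A. Going by those names, WT shares a recombination site with lola[E76] and not with nerfin-1[159], so effects of the 2A background and of nerfin-1[159] cannot be told apart here. Both mutants were compared with the same 3 WT libraries, so the 2 comparisons are not independent. Each library pooled sorts of different days (33000 to 105000 cells, 15 to 70 ng of RNA) and no label separates the animals, so p-values speak of the spread among such pools, which may be technical. The sources used here do not give how the clones were marked and induced. Libraries held 3465601 to 5200223 counts, and 3 counts in 1 library equalled 0.568 to 0.849 CPM (counts scaled to the library size after TMM). For a group at 0 the floor used was 3 counts over its 3 libraries together. QuantSeq reads 1 stretch near the 3′ end of a transcript, so CPM is not divided by gene length.

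The labels were checked before the members. nerfin-1 had 1157, 1263 and 1452 counts in the WT libraries, 507, 706 and 638 in the lola[E76] libraries and 65, 27 and 8 in the nerfin-1[159] libraries. In WT clones lola had 7188, 8413 and 8425 counts, against 8827, 9685 and 7738 in the lola[E76] clones, so these 3′ tags do not check that allele. The cells held neuronal RNA in each genotype, with none of 10 neuron markers at 0. These summed to 3618 to 4277 CPM in WT clones, 2800 to 3217 CPM in lola[E76] and 2784 to 3181 CPM in nerfin-1[159] libraries. Most of each sum was elav (2492, 2194 and 2345 CPM on average), which was not called in any comparison. Falls among the other neuron markers are given below.

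Of the family, 11 genes fell in nerfin-1[159] clones and 1, DIP-alpha, rose in lola[E76] clones. The 21 dpr genes summed to 622.9, 594 and 595 CPM in the WT libraries (604 ± 16.4, SD, n = 3), to 429.5, 486.3 and 590 CPM in lola[E76] (502 ± 81.4) and to 403.8, 310.9 and 298.8 CPM in nerfin-1[159] (338 ± 57.4). The 11 DIP genes summed to 191.5, 204.1 and 185.7 CPM in WT (194 ± 9.40), to 248.8, 247.1 and 183 CPM in lola[E76] (226 ± 37.5) and to 115.5, 81.99 and 116.7 CPM in nerfin-1[159] (105 ± 19.7). For both sums each nerfin-1[159] library lay below each WT and each lola[E76] library, whereas the DIP sums of lola[E76] overlapped those of WT. The sums are a description and were not tested.

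**Figure D1:**
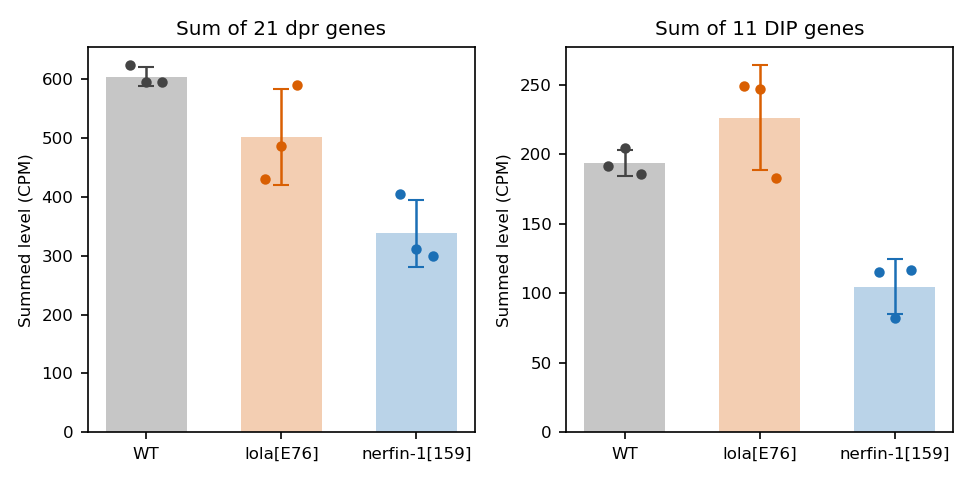
Summed level (CPM, linear axis from 0) of the 21 dpr genes and of the 11 DIP genes by genotype. Points are the 3 libraries, bars the mean and error bars the SD; the nerfin-1[159] libraries are the lowest in both panels, at 298.8 to 403.8 CPM for dpr and 81.99 to 116.7 CPM for DIP genes.

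Of the 32 members, 29 had enough counts to be tested and 3 (dpr15, DIP-iota and DIP-zeta) did not. In nerfin-1[159] against WT, 11 members were called lower and 0 higher at an adjusted p of 0.05 by the quasi-likelihood test of edgeR, adjusted by Benjamini-Hochberg over all 7451 tested genes. That is 34.4% of the 32 members and 37.9% of those tested, where 6.27% of all tested genes were called lower and 5.66% higher, shares that the filter affects as given below. Without the filter on low counts, the median log2 difference of all 32 members was -1.19 and 29 lay below 0. Over all genes the median was -0.01, and 6189 of 12211 lay below 0. The 29 include dpr12 at -0.006 and DIP-iota, with 0 counts in nerfin-1[159] and 3 in WT. The 3 nerfin-1[159] libraries did not overlap the 3 WT libraries for 17 of the 32 members, and for 30.5% of all tested genes.

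In lola[E76] against WT, 1 member was called higher and 0 lower. This is 3.45% of the tested members, where 6.5% of all tested genes were called in either direction (3.58% higher and 2.91% lower). Calls in either direction numbered 2 with no low-count filter and 3 with limma voom or with only these 2 genotypes in the fit. All added calls were lower: DIP-theta in each of these settings, and dpr9 in the latter 2. Without the filter the median log2 difference of the 32 members was -0.39, against -0.02 over all genes. Below 0 lay 21 members, and 6232 of 12211 genes. Libraries of lola[E76] and WT did not overlap for 10 members, and for 24.8% of tested genes.

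The mutants were also compared with each other, which gave 10 members lower in nerfin-1[159] than in lola[E76] and 0 higher. Among all tested genes 8.58% were lower in that comparison and 6.94% higher. The no-filter median of the 32 members was -1.20, and libraries did not overlap for 14 members against 30.3% of tested genes. It shares the nerfin-1[159] libraries with the comparison against WT.

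The filter bears on these counts, because a gene low in 1 genotype can pass through the others. DIP-gamma and dpr2 reached 10 counts in 0 of the 3 nerfin-1[159] libraries, DIP-theta in 1 and dpr3 in 2, while all 4 reached it in each WT and lola[E76] library. They passed the filter through the genotypes where they are high, so the counts of 11 and 10 and their shares above are descriptions and are not read against the background. Of the 11 calls against WT, 7 were of members with 10 counts or more in all 9 libraries, 16 members in all, and of the 10 between the mutants 8 were. Keeping only those 16 leaves out members that fell to few counts, so neither count is free of the filter.

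**Figure D2:**
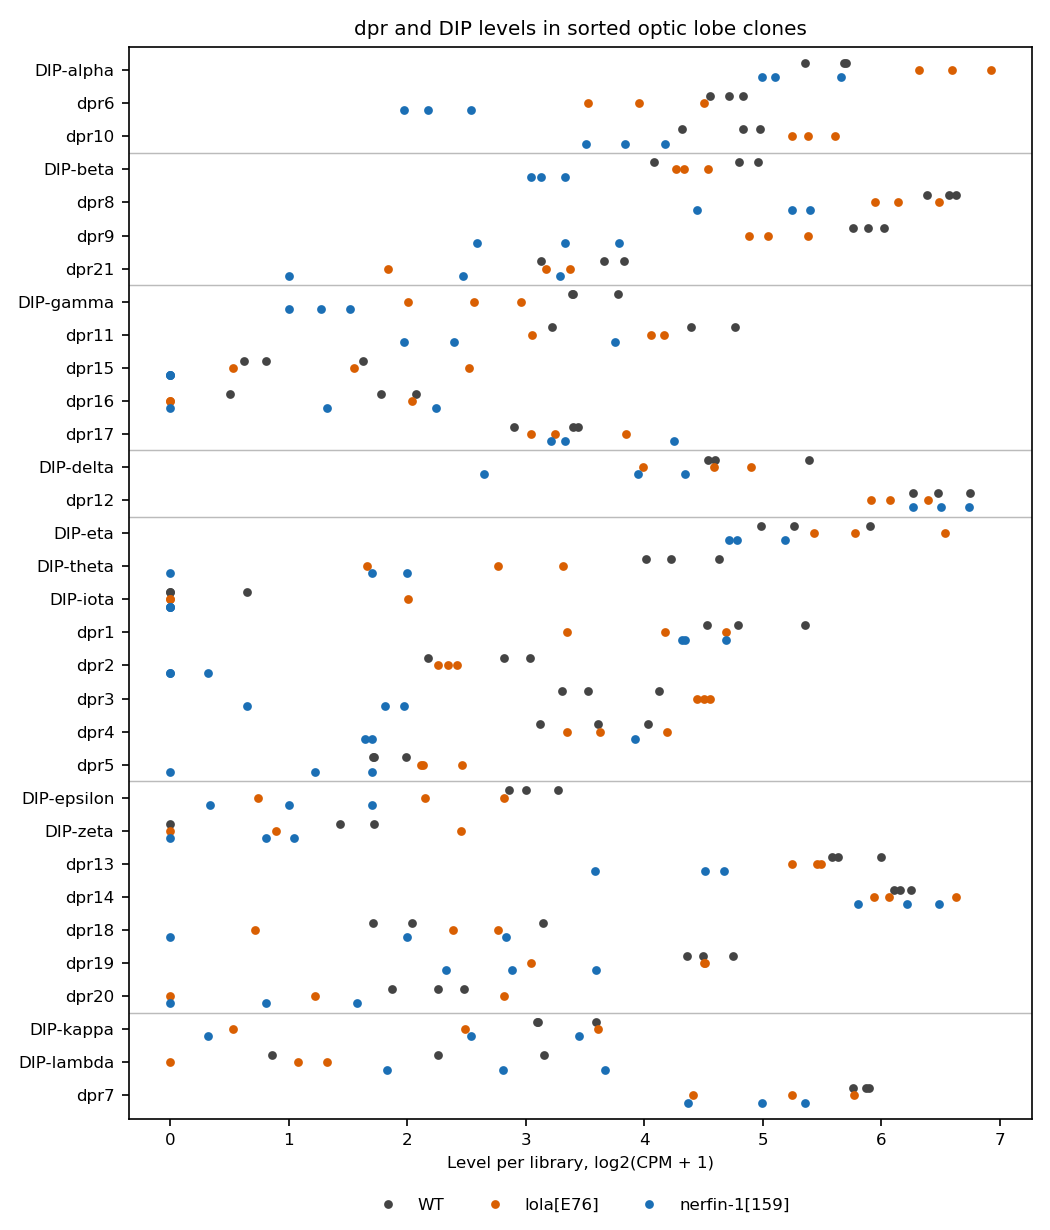
Level of each of the 32 members in each of the 9 libraries, as log2(CPM + 1), grouped by binding partner with horizontal lines between groups. Each point is 1 library; nerfin-1[159] points lie to the left of all WT points for dpr6, dpr9 and dpr8, among others, among the WT points for dpr12 and on both sides of them for dpr14.

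Members are described below by the DIP that each Dpr is known to bind from biochemical work in *Drosophila*. The first group is DIP-alpha with its partners dpr6 and dpr10, pairs known from medulla neurons and from motor axons. DIP-alpha rose in lola[E76] clones, where its partner genes were not called. It stood at 39.98, 51.02 and 50.60 CPM in the WT libraries (47.2 ± 6.26), at 120.5, 95.88 and 78.86 CPM in lola[E76] (98.4 ± 20.9) and at 33.41, 30.84 and 49.58 CPM in nerfin-1[159] (37.9 ± 10.2). Every lola[E76] library lay above every other library, and nerfin-1[159] overlapped WT. The rise over WT was 1.06 ± 0.22 on the log2 scale (SE; adjusted p = 0.0046), and it was called whichever library was left out, at 0.89 to 1.19 and with adjusted p up to 0.0296. The difference of nerfin-1[159] from lola[E76] was -1.37 ± 0.22 (adjusted p = 0.000218), and that from WT was -0.32 ± 0.22 and not called (adjusted p = 0.46).

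A long noncoding RNA gene, lncRNA:CR34335, lies within DIP-alpha on the reference used here and is among the most heavily counted genes. It took 3.30% to 5.44% of all counts in a library, at 52397 ± 3426 CPM in WT clones, 37854 ± 5905 CPM in lola[E76] and 43604 ± 3976 CPM in nerfin-1[159]. DIP-alpha itself averaged 47.2, 98.4 and 37.9 CPM in these genotypes, so a very small share of the lncRNA reads would be large beside it. The sources used here do not give the strand setting of the counting, and reads of overlapping genes may not be fully separated. The DIP-alpha counts, and the rise in lola[E76], are uncertain to that extent. In lola[E76] the long noncoding RNA differed from WT by -0.47 ± 0.10 (adjusted p = 0.0049), and the part of its reads in the DIP-alpha values was not tested.

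The dpr6 gene was among the members with the largest falls in nerfin-1[159]. Its levels were 27.55, 25.20 and 22.55 CPM in WT clones, 14.52, 21.76 and 10.50 CPM in lola[E76] and 4.813, 3.510 and 2.932 CPM in nerfin-1[159]. The 3 genotypes did not overlap, with WT highest and nerfin-1[159] lowest. The fall from WT was -2.74 ± 0.40 (log2, SE; adjusted p = 0.000102) in nerfin-1[159], and the lola[E76] value was -0.68 ± 0.35 and not called (adjusted p = 0.318). Between the mutants dpr6 differed by -2.05 ± 0.40 (adjusted p = 0.00121).

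The levels of dpr10 were 18.91, 27.49 and 30.51 CPM in WT clones, 37.02, 47.83 and 40.66 CPM in lola[E76] and 13.31, 17.05 and 10.40 CPM in nerfin-1[159]. Again the 3 genotypes did not overlap, but here lola[E76] was highest. The mutants differed from each other by -1.62 ± 0.29 (adjusted p = 0.000557). Against WT, lola[E76] was at 0.70 ± 0.28 and not called (adjusted p = 0.157). The nerfin-1[159] value of -0.92 ± 0.29 was called narrowly (adjusted p = 0.044), and the call held in 7 of 16 alternatives. It was lost without WT replicate 2 (0.143) or 3 (0.194), without lola[E76] replicate 2 (0.0547) or 3 (0.0549) and without nerfin-1[159] replicate 1 (0.1) or 3 (0.182). dpr6 and dpr10 are neighbours on 3L, 8.09 kb apart with 0 genes between them, and nerfin-1 lies on the same arm, so variants linked to nerfin-1[159] there cannot be told apart from the loss of Nerfin-1. The same limit holds for DIP-delta and dpr20, the other members on 3L.

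**Figure D3:**
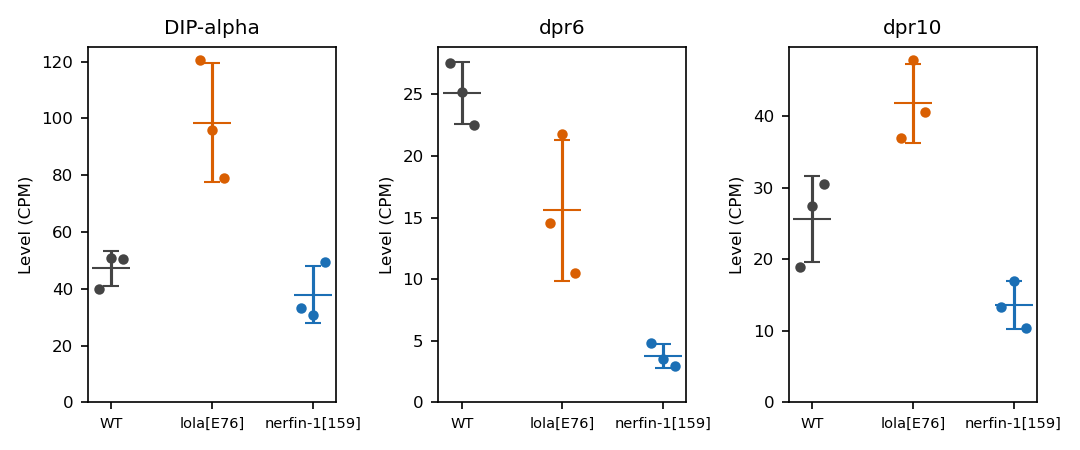
Level (CPM, linear axes from 0, a different scale in each panel) of DIP-alpha and its partners dpr6 and dpr10 in each library. Points are libraries, the long bar is the mean and the error bar the SD of 3 libraries; lola[E76] is highest for DIP-alpha and dpr10, WT is highest for dpr6, and nerfin-1[159] is lowest for dpr6 and dpr10.

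The DIP-beta group, with dpr8, dpr9 and dpr21, was lower in nerfin-1[159] clones for 3 of its 4 genes, and 0 of its 4 genes were called in lola[E76]. DIP-beta is known from lamina neurons. Its levels were 15.94, 26.87 and 30.13 CPM in WT clones, 22.26, 19.18 and 18.32 CPM in lola[E76] and 9.061, 7.271 and 7.730 CPM in nerfin-1[159]. Both other genotypes lay wholly above nerfin-1[159] and overlapped each other. It fell by 1.60 ± 0.34 on the log2 scale against WT (adjusted p = 0.00336) and by 1.31 ± 0.34 against lola[E76] (adjusted p = 0.0112).

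The gene dpr9 had the lowest adjusted p of the family. It stood at 53.21, 63.94 and 58.18 CPM in WT clones, 31.94, 28.44 and 40.66 CPM in lola[E76] and 9.061, 5.015 and 12.79 CPM in nerfin-1[159]. The libraries formed 3 separate steps, from WT down to nerfin-1[159]. The nerfin-1[159] fall was -2.71 ± 0.30 against WT (adjusted p = 6.29e-06) and -1.91 ± 0.30 against lola[E76] (adjusted p = 0.00018). The step from WT to lola[E76] was -0.80 ± 0.27 and not called (adjusted p = 0.099), although limma voom (0.0237) and a fit on these 2 genotypes alone (0.0373) called it.

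Levels of dpr8 were 98.32, 94.13 and 82.62 CPM in WT clones, 69.45, 60.54 and 88.91 CPM in lola[E76] and 41.06, 36.86 and 20.79 CPM in nerfin-1[159]. Each nerfin-1[159] library was below the others, while lola[E76] replicate 3 reached into the WT range. It fell by 1.48 ± 0.23 against WT (adjusted p = 0.000212) and by 1.15 ± 0.23 against lola[E76] (adjusted p = 0.00156). For dpr21 the libraries overlapped in every comparison (WT 7.769 to 13.24 CPM, lola[E76] 2.585 to 9.383 CPM, nerfin-1[159] 1.003 to 8.777 CPM), and it was not called.

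The DIP-gamma group holds dpr11, dpr15, dpr16 and dpr17, and the pair of DIP-gamma and Dpr11 is known from the matching of colour-vision photoreceptors with their medulla targets. DIP-gamma stood at 12.70, 9.580 and 9.475 CPM in WT clones, 6.776, 3.016 and 4.915 CPM in lola[E76] and 1.416, 1.003 and 1.866 CPM in nerfin-1[159]. The genotypes again formed separate steps. It fell by 2.87 ± 0.67 in nerfin-1[159] against WT (adjusted p = 0.00701). The other differences were -1.11 ± 0.60 for lola[E76] against WT (adjusted p = 0.348) and -1.76 ± 0.67 between the mutants (adjusted p = 0.0855), the latter called by the DESeq2 Wald test (0.0409).

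No partner of DIP-gamma was called. dpr11 stood at 26.20, 8.330 and 20.09 CPM in WT clones, 16.94, 7.326 and 15.64 CPM in lola[E76] and 12.46, 4.263 and 2.932 CPM in nerfin-1[159]. The genotypes overlapped, and the spread within WT was wide. The nerfin-1[159] difference from WT was -1.47 ± 0.54 (adjusted p = 0.0909). It was called without nerfin-1[159] replicate 1 (-2.32, adjusted p = 0.0137), without WT replicate 2 (-1.83, 0.0479), with the replicate block (0.0447) and with no filter (0.0195). Without nerfin-1[159] replicate 1 its difference from lola[E76] was called as well (-1.87, adjusted p = 0.0394).

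dpr17 was not called in any comparison. It stood at 8.64 ± 1.87 CPM in WT clones, 9.70 ± 3.22 CPM in lola[E76] and 11.8 ± 5.44 CPM in nerfin-1[159], a difference of 0.44 ± 0.46 from WT (adjusted p = 0.661). dpr15 was too low to test, with 2, 10 and 4 counts in WT clones, 8, 22 and 2 in lola[E76] and 0 in each nerfin-1[159] library. With nerfin-1[159] set to the floor of 3 counts over the group, it was 4.39-fold lower than WT and 9.36-fold lower than lola[E76]. These ratios take the 16 WT and 32 lola[E76] counts as exact and leave out the spread among libraries. In the edgeR fit with no low-count filter neither difference was called (adjusted p = 0.199 and 0.0771). dpr16 stayed at or below 3.732 CPM in every library, and it overlaps cno and CG12590, both of which were counted.

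DIP-delta and its partner dpr12, a pair known from the layered wiring of the mushroom body, were not called in any comparison. DIP-delta stood at 23.23, 40.82 and 22.17 CPM in WT clones, 28.80, 14.87 and 23.01 CPM in lola[E76] and 19.25, 5.265 and 14.39 CPM in nerfin-1[159]. Each nerfin-1[159] library lay below each WT library, but the difference of -1.15 ± 0.41 was not called (adjusted p = 0.0774). It was called without nerfin-1[159] replicate 1 (-1.55, adjusted p = 0.0342) and with no filter (0.0134).

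The partner dpr12 was at 106.4, 76.22 and 88.30 CPM in WT and at 105.9, 76.22 and 89.56 CPM in nerfin-1[159]. The libraries overlapped fully, and the difference was 0.00 ± 0.19 (log2, SE; adjusted p = 0.994). In lola[E76] dpr12 was at 59.29, 66.36 and 83.33 CPM, which overlapped WT (-0.37 ± 0.19, adjusted p = 0.302).

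The largest group is that of DIP-eta, DIP-theta and DIP-iota, which share the partners dpr1 to dpr5. In nerfin-1[159] 3 of its 8 genes fell, DIP-theta, dpr2 and dpr3, and 0 rose. DIP-theta stood at 23.77, 17.70 and 15.16 CPM in WT clones, 5.808, 2.155 and 8.936 CPM in lola[E76] and 2.265, 3.009 and 0 CPM in nerfin-1[159]. Both mutants lay wholly below WT and overlapped each other. The nerfin-1[159] fall was -3.39 ± 0.73 (adjusted p = 0.00384), and without 1 library it ranged from -4.05 to -2.82. The lola[E76] value was -1.74 ± 0.65 and not called (adjusted p = 0.136), although no filter (0.0354), limma voom (0.0327) and a fit on these 2 genotypes (0.046) called it. Between the mutants the difference of -1.66 ± 0.73 was not called (adjusted p = 0.147).

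dpr2 nearly disappeared from nerfin-1[159] clones. It had 13, 29 and 38 counts in WT clones, 18, 19 and 17 in lola[E76] clones and 0, 1 and 0 in nerfin-1[159]. A single count stood against 80 in WT, a ratio of 65.8 with a 95% counting interval of 11.5 to 2630. Against 54 in lola[E76] the ratio was 47.4 (8.15 to 1910). Both intervals pool the libraries and cover counting error only. dpr2 was called lower than WT (adjusted p = 0.00449) and lower than lola[E76] (adjusted p = 0.00644), whichever library was left out.

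dpr3 differed between the mutants. It stood at 10.53, 16.45 and 8.906 CPM in WT clones, 20.81, 21.76 and 22.56 CPM in lola[E76] and 0.5663, 2.507 and 2.932 CPM in nerfin-1[159]. The genotypes did not overlap, with lola[E76] above WT and nerfin-1[159] below it. The fall from WT was -2.55 ± 0.50 (adjusted p = 0.00176), the difference between the mutants was -3.41 ± 0.51 (adjusted p = 9.47e-05), and the lola[E76] value of 0.86 ± 0.43 was not called (adjusted p = 0.293).

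DIP-eta was called between the mutants only. Its levels were 58.88, 30.61 and 37.52 CPM in WT clones, 53.96, 92.00 and 42.22 CPM in lola[E76] and 35.39, 26.58 and 25.32 CPM in nerfin-1[159]. nerfin-1[159] lay below lola[E76], and WT overlapped both. The difference between the mutants was -1.11 ± 0.30 (adjusted p = 0.013). It was not called without lola[E76] replicate 2 (-0.73, adjusted p = 0.119), nerfin-1[159] replicate 2 (0.0562) or nerfin-1[159] replicate 3 (0.0655). DIP-eta and DIP-theta lie 8.35 kb apart on 2L, with 2 genes between them. In nerfin-1[159] against WT DIP-theta was called lower and DIP-eta (-0.54 ± 0.30, adjusted p = 0.314) was not. Whether these 2 genes differed in their change was not tested.

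In the same group dpr4 showed a split among the nerfin-1[159] libraries, at 14.16 CPM in replicate 1 and 2.257 and 2.132 CPM in the others, against 7.706 to 15.40 CPM in WT clones and 9.196 to 17.24 CPM in lola[E76]. It was not called against WT (-0.89 ± 0.61, adjusted p = 0.446) or against lola[E76] (-1.04 ± 0.61, adjusted p = 0.296). Without nerfin-1[159] replicate 1 it was called in both (-2.36, adjusted p = 0.0145, and -2.50, adjusted p = 0.00791). dpr1 (19.0 to 24.8 CPM in nerfin-1[159] against 22.2 to 40.0 CPM in WT) and dpr5 (0 to 2.265 CPM against 2.274 to 2.971 CPM) were not called. DIP-iota had 3 counts in WT clones, all in replicate 3, 14 in lola[E76], all in replicate 2, and 0 in nerfin-1[159]. Its pooled ratio of lola[E76] to WT was 4.98, with a 95% counting interval of 1.39 to 27. That interval covers counting error only and not the spread among libraries. In the edgeR fit with no low-count filter this difference was not called (adjusted p = 0.727).

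DIP-epsilon and DIP-zeta share the partners dpr13, dpr14, dpr18, dpr19 and dpr20. Of these 7 genes dpr13 and dpr19 fell in nerfin-1[159] and 0 rose. Levels of dpr13 were 48.62, 47.07 and 62.91 CPM in WT clones, 37.02, 42.88 and 44.01 CPM in lola[E76] and 21.80, 11.03 and 24.52 CPM in nerfin-1[159]. The genotypes did not overlap. It fell by 1.47 ± 0.27 against WT (adjusted p = 0.00108) and by 1.11 ± 0.27 against lola[E76] (adjusted p = 0.00783).

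Levels of dpr19 were 25.93, 19.58 and 21.60 CPM in WT clones, 7.260, 21.76 and 21.89 CPM in lola[E76] and 11.04, 4.012 and 6.397 CPM in nerfin-1[159]. nerfin-1[159] lay below WT, and lola[E76] replicate 1 lay among the nerfin-1[159] libraries. The fall from WT was -1.65 ± 0.45 (adjusted p = 0.0191). It was not called without WT replicate 1 (0.0721), nerfin-1[159] replicate 2 (0.0979) or nerfin-1[159] replicate 3 (0.0767). Between the mutants dpr19 was at -1.25 ± 0.45 (adjusted p = 0.0672), and it was called without lola[E76] replicate 1 (-1.62, adjusted p = 0.00797) or nerfin-1[159] replicate 1 (-1.70, 0.0283).

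dpr14 stood at 70.23, 74.97 and 67.84 CPM in WT clones, 65.82, 60.33 and 97.85 CPM in lola[E76] and 88.62, 73.47 and 54.91 CPM in nerfin-1[159]. Its genotypes overlapped in every comparison, with a nerfin-1[159] difference of 0.03 ± 0.21 (adjusted p = 0.972). DIP-epsilon stood at 8.643, 6.248 and 7.011 CPM in WT and at 2.265, 1.003 and 0.2665 CPM in nerfin-1[159], which did not overlap. Its difference of -2.61 ± 0.95 was not called (adjusted p = 0.0873), but was by the DESeq2 Wald test (0.0258) and in a fit on these 2 genotypes (0.029). dpr18, dpr20 and DIP-zeta stayed at or below 7.833, 6.033 and 4.468 CPM in every library and had 0 calls.

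No partner group was fixed for DIP-kappa, DIP-lambda and dpr7. dpr7 stood at 58.61, 53.11 and 57.61 CPM in WT clones, 20.33, 37.06 and 53.62 CPM in lola[E76] and 39.92, 30.84 and 19.72 CPM in nerfin-1[159]. Each nerfin-1[159] library lay below each WT library. The difference of -0.90 ± 0.30 just missed the threshold (adjusted p = 0.0616), and 7 of 16 alternatives called it, among them the fits without lola[E76] replicate 1 (0.017), lola[E76] replicate 3 (0.0409) or nerfin-1[159] replicate 1 (0.0334).

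DIP-lambda was low in lola[E76], at 0, 1.508 and 1.117 CPM, against 2.548, 6.018 and 11.73 CPM in nerfin-1[159] and 0.8103, 7.914 and 3.790 CPM in WT. The mutants did not overlap, and WT overlapped lola[E76] and nerfin-1[159]. The difference between the mutants was 2.89 ± 1.07 and not called (adjusted p = 0.0783), but was with the DESeq2 Wald test (0.0235), no filter (0.0328) and the replicate block (0.0451). DIP-kappa varied from 0.2507 to 9.910 CPM among the nerfin-1[159] libraries alone and was not called.

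**Figure D4:**
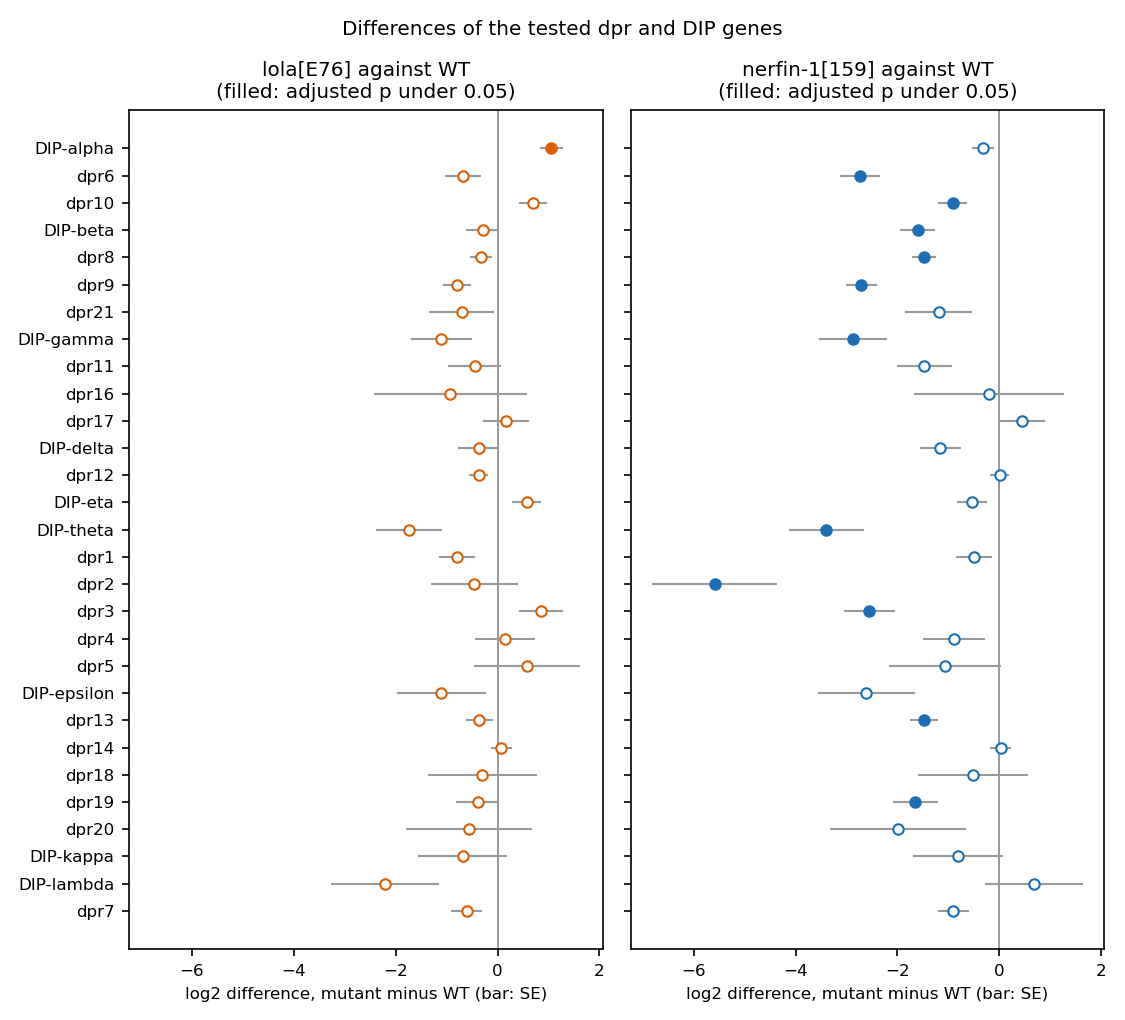
Log2 difference of each of the 29 tested members from WT, in lola[E76] (left) and nerfin-1[159] (right). Points are edgeR estimates, bars are 1 SE, and filled points had an adjusted p under 0.05; 1 point is filled on the left (DIP-alpha, above 0) and 11 on the right, all below 0.

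Other cell-surface genes give the setting. Among 28 other synaptic recognition proteins, of which 27 were tested, 7 were lower and 0 higher in nerfin-1[159] against WT, and 4 were lower and 1 higher in lola[E76]. The 3 largest in nerfin-1[159] were neuroligins, postsynaptic adhesion proteins: Nlg2 (-2.11 ± 0.38), Nlg4 (-1.92 ± 0.60) and Nlg3 (-1.83 ± 0.37). In lola[E76] the largest was Nrx-1, the presynaptic neurexin (-1.44 ± 0.20). Among 12 immunoglobulin relatives, 10 tested, 4 were lower and 0 higher in nerfin-1[159], among them klg (-1.10 ± 0.15) and Fas2 (-0.95 ± 0.13). In lola[E76] 3 relatives were higher and 2 lower, and the glial gene wrapper (3.95 ± 0.81) and kirre (1.01 ± 0.17) were the largest rises. Among all tested genes 6.27% were lower and 5.66% higher in nerfin-1[159] against WT, and 2.91% lower and 3.58% higher in lola[E76]. Of the tested dpr and DIP genes 11 of 29 were lower in nerfin-1[159], so falls there were not confined to the family. The counts for these lists are descriptions and were not tested.

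Markers of other cells moved with the genotypes. The 8 neuroblast markers summed to 131.3 to 415.2 CPM in WT clones, 565 to 611.5 CPM in lola[E76] and 1192 to 1362 CPM in nerfin-1[159], and 7 of the 8 rose in nerfin-1[159] and 3 in lola[E76]. Of the 10 neuron markers 5 fell in nerfin-1[159] and 2 in lola[E76], and 0 rose in either against WT. In nerfin-1[159] these were VAChT (-2.26 ± 0.20), ChAT (-1.65 ± 0.24), nSyb (-1.55 ± 0.31), brp (-1.24 ± 0.16) and Syt1 (-0.96 ± 0.19). In lola[E76] they were nSyb (-3.78 ± 0.35) and VAChT (-1.14 ± 0.19). The 9 optic lobe transcription factors summed to 1866 to 2153 CPM in WT clones, 2346 to 2882 CPM in lola[E76] and 1283 to 1321 CPM in nerfin-1[159]. Most of each sum was hth (1175, 2043 and 640 CPM on average), which rose in lola[E76] and fell in nerfin-1[159], while 4 of the 9 (scro, dac, tll and Lim1) fell in lola[E76]. In nerfin-1[159] 4 of the 9 fell, hth among them, and ey rose. Glial markers stood at 168.8 to 188 CPM in WT clones, 180.5 to 268.6 CPM in lola[E76] and 189.2 to 222.8 CPM in nerfin-1[159]. The 5 haemocyte and fat body markers summed to 3.782 to 12.29 CPM in WT clones, 23.48 to 53.96 CPM in lola[E76] and 194 to 268.1 CPM in nerfin-1[159]. Most of the mutants' sums was 1 collagen gene, Col4a1 (5.09 ± 3.03 CPM in WT clones, 29.4 ± 9.62 CPM in lola[E76], 236.2 ± 42.1 CPM in nerfin-1[159]), which rose in both. The other collagen gene, vkg, was not called (3.33 ± 2.17, 4.32 ± 6.35 and 2.85 ± 0.92 CPM), Hml averaged at most 2.19 CPM, and srp and NimC1 were at 0 in both mutants. Eye disc and photoreceptor markers stayed at or below 15.41 CPM, with pph13 at 0. The part of these shifts in the dpr and DIP results was not tested, and in bulk samples fewer cells of a type and less RNA per cell cannot be told apart.

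Lola.N peaks at the family were few. The 2 replicates gave 4676 and 4544 peaks, called by the authors against Dam alone, and these met in 3342 intervals. A gene counted as bound where such an interval of both replicates lay in its body or within 1 kb of it, on a Release 6 gene table, although the build of the peaks is not stated. On that rule 4 of 32 members were bound (12.5%), against 19.5% of 17537 genes. Bound genes were more frequent among long genes, and the median length of the members was 32.5 kb. Among genes of 30 kb or more 51.9% were bound, against 4 of 17 members (23.5%), and among genes of 10 kb or more 43.3%, against 4 of 24 members (16.7%). Among shorter genes 16.3% were bound, against 0 of 8 members. Per 100 kb of gene the members held 0.304 intervals and genes of 30 kb or more 1.82. The median distance to the nearest interval was 36.6 kb for members and 11.2 kb for all genes. By comparison 19 of the 28 other synaptic recognition genes (67.9%) and 4 of the 12 relatives (33.3%) were bound. These shares are descriptions and were not tested.

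The bound members were DIP-alpha, dpr21, dpr11 and DIP-lambda, with 5 intervals in all. Each lay inside the gene, and 0 lay within 1 kb of a gene end. At DIP-alpha the interval was chrX:3545761-3546812, 24.8 kb from the nearer end of a gene of 64.4 kb, with the authors' peak scores of 1.94 in N1 and 2.22 in N2. It overlaps lncRNA:CR34335, so it cannot be assigned to DIP-alpha alone. At dpr21 it was chr2R:3074568-3074933 (scores 3.96 and 2.04), at dpr11 chr3R:6534625-6535974 (1.91 and 1.45), and at DIP-lambda chr2R:497442-499252 (1.85 and 1.32) and chr2R:610646-613299 (1.23 and 1.10). The sources used here do not give the scale of these scores. Their medians at the members, 1.91 in N1 and 1.45 in N2, were below those of all intervals, 2.8 and 2.14. In the upper part of each list by score, taken at its median, only dpr21 remained bound.

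Of the members that changed in the RNA, the 1 called higher in lola[E76], DIP-alpha, held a peak, and 0 of the 11 called lower in nerfin-1[159] did. The other 3 bound genes, dpr21, dpr11 and DIP-lambda, were not called in lola[E76]. With 1 call in lola[E76] no relation of peaks to change can be read from the family. Peaks of 1 replicate alone also lay at DIP-beta and dpr18 (N1) and at dpr14 (N2), as well as elsewhere in dpr21 and DIP-lambda. The driver cells of the DamID and the sorted clones are not the same population.

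**Figure D5:**
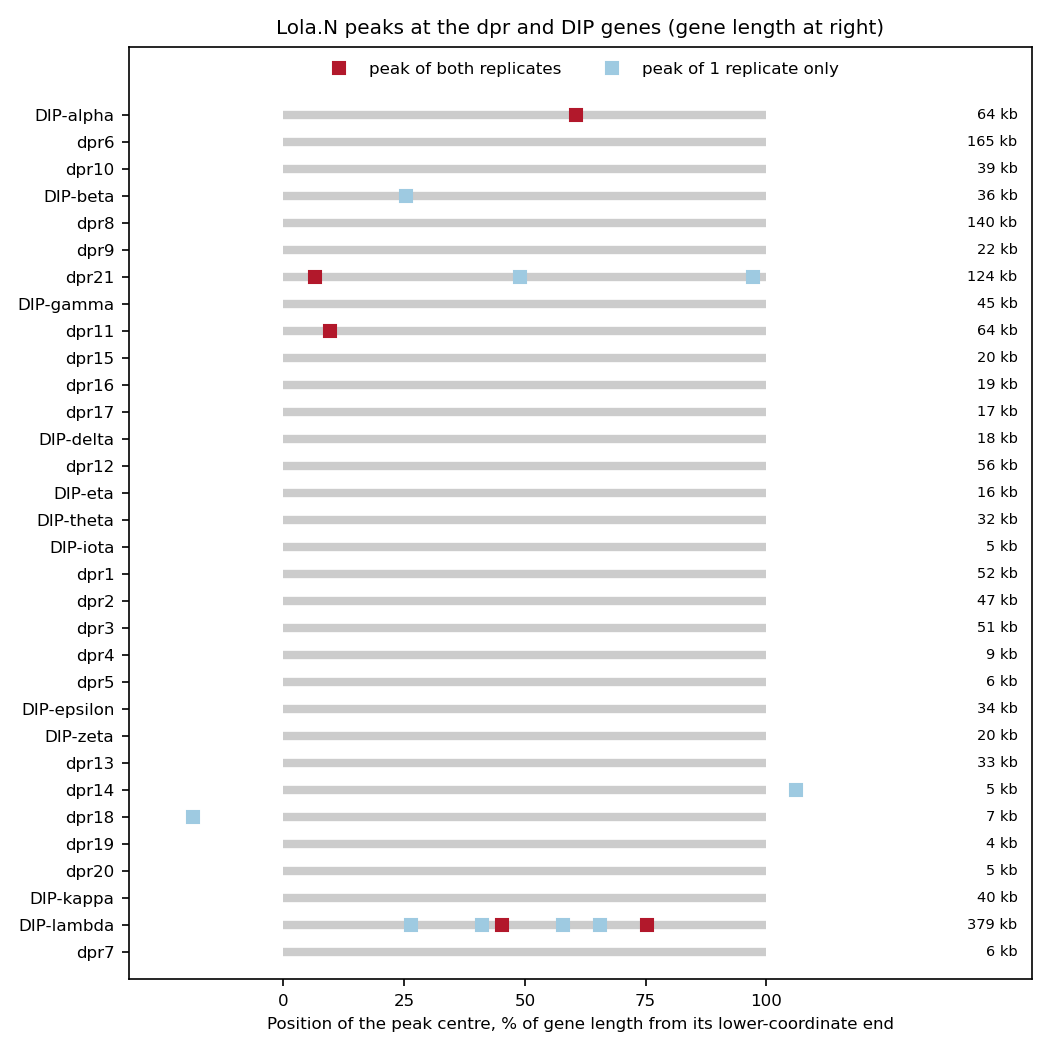
Position of Lola.N peak centres along each of the 32 members, as percent of gene length from the end with the lower coordinate, with the gene length in kb at the right. Grey lines are genes, dark squares are intervals of both replicates and light squares are peaks of 1 replicate; dark squares occur only at DIP-alpha, dpr21, dpr11 and DIP-lambda.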

How the data were processed

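The authors deposited raw counts of QuantSeq tags per gene, made with tools among which the submitters' processing notes list Subread, featureCounts and limma. The deposited DamID files give a peak score per peak, which the authors called against Dam alone (FDR 0.01 in the file names), and Dam-only samples were not analysed here. Members, partner groups and other lists were chosen with earlier results of these data known, and so were tests. All members are named. The lists of other cell-surface genes name called genes, at most the 6 largest per comparison, and the untested Nlg1. With edgeR 4.0.16 in R 4.3.3, genes were filtered by filterByExpr (7451 left), scaled by TMM and tested by quasi-likelihood on all 9 libraries with 1 mean per genotype, two-sided, adjusted by Benjamini-Hochberg. SE is the size of the log2 difference divided by the square root of F. Alternatives used limma 3.58.1, DESeq2 1.42.0, other scalings, filters and samples. Same-numbered libraries did not deviate together (r of -0.056 to 0.023), so the numbers pair nothing. Peaks were placed with the Release 6 RefSeq gene table, which matched 32 of 32 members; with peaks not moved, 2778 genes had an end within 1 kb of an interval, against 2379 and 2356 with peaks moved by 5 kb either way. The sources used here do not give the build of the files, and no sequence is shown.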

Additional observations from a re-analysis of the deposited data

How the results depend on the processing

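The members called in lola[E76] against WT numbered 1, and stayed at 1 whichever library was left out. They numbered 2 with no low-count filter, 3 with limma voom and 3 with only the 2 groups compared, with DIP-theta or dpr9 or both added as lower. In nerfin-1[159] against WT the 11 calls ranged from 9 to 14 when a library was left out, and in nerfin-1[159] against lola[E76] the 10 calls ranged from 9 to 13. Other settings gave 11 to 14 and 10 to 13. Between the mutants these totals include DIP-lambda, called higher with no filter, the DESeq2 Wald test and the replicate block, while the other calls were lower. The replicate block gave 1, 11 and 11 calls; as the numbers do not pair the libraries (only 1 of 9 libraries had its highest correlation with a library of its own number), this is not read as a weaker or stronger effect. The 4 members with a Lola.N peak (12.5%, against 19.5% of all genes) became 6 with N1 alone (26.7% of all genes), 5 with N2 alone (26.2%) and 1 with the part of each list above its median score (10.5%). They stayed at 4 with gene bodies only (13.8% of all genes), 5 kb on either side (35.2%) or overlap by 50% of each peak (16.4%), so the members' share lay near that of all genes with gene bodies only. Over 1386 values of single members, 1340 stayed called or uncalled as in the main fit, 15 lost a call and 31 gained one. Among called values 0 changed sign. The 1340 include 31 values that changed sign and were uncalled in both fits. Of 22 called differences 19 kept the call under every alternative; the exceptions were dpr10 and dpr19 against WT and DIP-eta between the mutants. Scaling by library size alone moved the median of all genes by at most 0.04 on the log2 scale. Members under about 10 counts per library limit what could be called.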
